A study of Mus musculus with 6 samples.

Results

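The genes described here are the cadherins and protocadherins in microdissected craniofacial tissue of E12.5 mouse embryos. Members were taken by gene symbol. A symbol made of Cdh and a number was a cadherin, with *Cdh1* and *Cdh5* left out, and a symbol starting with Pcdh was a protocadherin. This gave 58 of 38553 entries, of which 21 were cadherins, 13 were nonclustered protocadherins and 24 were clustered protocadherins. The control group was 3 embryonic samples of the genotype *Rbfox2* flox/flox, which carry the floxed alleles without Cre. The mutant group was 3 samples of the genotype *Pax3*Cre/+:*Rbfox2* flox/flox, in which Cre deletes the splicing regulator *Rbfox2*. Both groups were E12.5, carried the same floxed alleles and came from a mixed genetic background. The mutants also carried 1 *Pax3*Cre allele, a knock-in at *Pax3* that the controls did not have. *Pax3* itself was measured at 8.83, 11.9 and 11.1 FPKM in controls and at 8.62, 7.59 and 8.36 FPKM in mutants. What this allele changed apart from the deletion was not tested. *Pax3*Cre is active in the neural crest and also in the somites and their derivatives, so the deletion is not limited to 1 cell type, and tissue that never expressed *Pax3* keeps *Rbfox2*. RNA was measured by poly(A)+ RNA-Seq as FPKM, fragments scaled to gene length and to the mapped fragments of the library. FPKM summed over all genes still differed between samples, from 528123 in mutant replicate 1 to 590174 in mutant replicate 3. Comparisons of FPKM between samples are therefore approximate.

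Cadherins are calcium-dependent adhesion molecules of the cell surface. The classical cadherins bind the same or a similar cadherin on the next cell and are anchored to actin through catenins. Type I cadherins such as N-cadherin give strong adhesion, and type II cadherins such as cadherin-11 are typical of mesenchyme and of subsets of neurons. Neural crest cells change their cadherins as they leave the neural tube, migrate and settle in the face. Protocadherins have related extracellular domains but lack the catenin-binding tail of classical cadherins. The nonclustered delta protocadherins stand alone in the genome, whereas the alpha, beta and gamma protocadherins lie in tandem clusters, and single neurons express different combinations of them, which gives each cell its own surface identity.

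*Rbfox2* checked the labels, at 58.4, 65.0 and 61.3 FPKM in controls and 38.1, 36.3 and 34.3 FPKM in mutants (log2 fold change -0.75, SE 0.08, limma, adjusted p = 0.19). Defining genes of cranial mesenchyme (*Prrx1*, *Prrx2*, *Twist1*, *Alx1*, *Alx4*, *Msx1*, *Pdgfra* and *Dlx5*) were present in every sample, with a summed level of 414 to 474 FPKM in controls and 380 to 464 FPKM in mutants. Neuronal, forebrain, muscle, epithelial and endothelial markers were present as well, so the tissue was mixed, and in such bulk samples fewer cells of a type and less RNA per cell cannot be told apart. The first replicate of each group stood apart from the other 4 samples along the first principal component, at -24.0 and -22.8 against 9.85 to 14.9. Of 13715 genes with a mean FPKM of at least 1, 47.7% had both first replicates above or below all the other samples, and 14 of the 33 members tested did. The summed level of 4 Y-linked genes was 57.7 and 55.5 FPKM in mutant replicates 1 and 2 and between 0.0989 and 0.217 FPKM in the other samples. By these genes mutant replicates 1 and 2 held male tissue, and the controls and mutant replicate 3 did not. Sex was thus unbalanced between the groups and is partly confounded with genotype.

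Craniofacial tissue expressed 57 of the 58 members above 0, and *Cdh16*, a cadherin of kidney, was listed at 0 in all 6 samples. The 33 members with a mean FPKM of at least 1 over the 6 samples were tested, 13 cadherins, 10 nonclustered protocadherins and 10 clustered protocadherins, and the other 25 were left out of the main fit for low values. None of the 33 passed an adjusted p of 0.05 in limma, as for all genes tested (0%). At an unadjusted p under 0.05, 1 member was called, *Cdh15*, against 2.09% of all genes tested. It was lower in mutants, a direction in which 1.26% of all genes were called. The 3 mutant values lay apart from the 3 control values for 1 member, *Cdh22*, against 5.79% of all genes. Both shares are near those of all genes. Of the 33 members, 20 had a log2 fold change below 0, where 49.3% of all genes did. The median log2 fold change was 0.0054 over the cadherins, -0.0035 over the nonclustered protocadherins and -0.079 over the clustered protocadherins, beside 0.0015 over all genes tested. With the replicate number as a block, 2 members passed an unadjusted p under 0.05 (6.15% of all genes), *Cdh15* and *Cdh24*. With replicates 2 and 3 alone, 5 members did (10.1% of all genes), *Cdh11*, *Cdh3*, *Cdh8*, *Cdh15* and *Pcdh18*. In this smaller set 15 of the 33 members had groups that did not overlap, and 43.9% of all genes did.

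**Figure D1:**
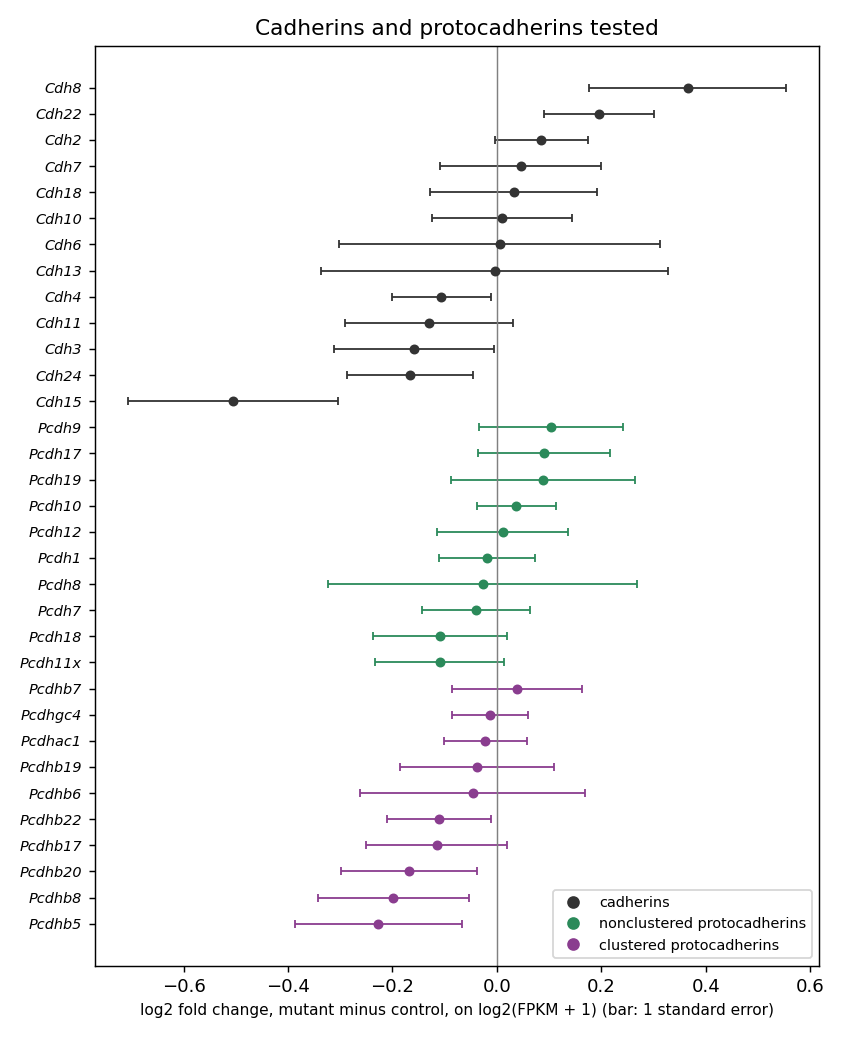
Log2 fold change of the 33 members tested, mutant minus control, on the scale log2(FPKM + 1), by family. Points are limma estimates from 3 control and 3 mutant samples and bars are 1 standard error on either side. *Cdh15* lies farthest below 0, at -0.51, and *Cdh8* farthest above, at 0.37.

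*Cdh15* and *Cdh22* are the members that stood out by these counts, and their promoter windows are shown here because they differ in base composition. *Cdh15* lies on chromosome 8, from 122847966 to 122867397 on the plus strand of GRCm38. *Cdh22* lies on chromosome 2, from 165111507 to 165234853 on the minus strand. The RefSeq windows run from 250 bases before to 50 bases after the RefSeq gene start, at chr8:122848124-122848423 on the plus strand for *Cdh15* and at chr2:165234688-165234987 on the minus strand for *Cdh22*, both in GRCm38.p6. The *Cdh15* window begins after the gene start given above, so it holds no bases upstream of that start. Both windows are written 5′ to 3′ with every CG dinucleotide in capitals.
Cdh15: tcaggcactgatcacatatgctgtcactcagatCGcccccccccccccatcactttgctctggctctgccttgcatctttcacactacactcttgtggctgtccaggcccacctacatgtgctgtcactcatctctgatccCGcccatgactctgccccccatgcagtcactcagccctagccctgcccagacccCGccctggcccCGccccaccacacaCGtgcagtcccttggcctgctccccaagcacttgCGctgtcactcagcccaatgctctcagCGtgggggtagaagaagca
Cdh22: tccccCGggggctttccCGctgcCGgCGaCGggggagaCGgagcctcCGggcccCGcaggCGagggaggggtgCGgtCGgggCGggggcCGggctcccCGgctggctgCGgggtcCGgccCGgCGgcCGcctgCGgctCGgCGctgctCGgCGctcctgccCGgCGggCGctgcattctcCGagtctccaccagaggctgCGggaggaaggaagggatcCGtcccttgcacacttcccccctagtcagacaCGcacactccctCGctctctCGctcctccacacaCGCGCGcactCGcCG
The *Cdh15* window held 7 CG dinucleotides, the median of all 32851 promoter windows of this length, and the *Cdh22* window held 38, more than in 95.1% of them. A window was at hand for 22 members, which held between 2 and 38 CG dinucleotides with a median of 13. *Cdh24* held 30, *Pcdh17* 26 and *Cdh10* 2. The letters CAGCTG, the core of an E-box bound by myogenic factors, were looked for on both strands. They were in 16.3% of all windows and in 3 of the 22 members, *Cdh9*, *Cdh12* and *Pcdh15*. The letters CAGGTG or its complement CACCTG, the E-box read by Snail and Zeb factors, were in 20.2% of all windows and in *Cdh7*, *Pcdh7* and *Pcdh15*. Neither set of letters was in the *Cdh15* or *Cdh22* window.

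Among type I cadherins, N-cadherin led. *Cdh2*, which neural crest cells, mesenchyme and neural tissue share, was measured at 74.0, 70.2 and 79.0 FPKM in controls and at 72.1, 81.8 and 83.2 FPKM in mutants. The groups overlapped. The log2 fold change was 0.08 (SE 0.09, limma, 95% confidence interval -0.13 to 0.30), and the exact permutation test gave p = 0.30. *Cdh3*, P-cadherin of surface ectoderm, was measured at 8.75, 13.3 and 11.9 FPKM in controls and at 8.80, 10.3 and 10.6 FPKM in mutants. Both first replicates were the lowest of their group and nearly equal. Its log2 fold change was -0.16 (SE 0.15, limma, unadjusted p = 0.33) over all samples and -0.24 with replicates 2 and 3 alone (limma, unadjusted p = 0.031, adjusted p = 0.47). It was -0.32 when control replicate 1 was dropped and -0.043 when control replicate 2 was. *Cdh4*, R-cadherin of retina and brain, had means of 9.997 ± 0.50 FPKM in controls and 9.23 ± 0.96 FPKM in mutants (SD, n = 3), a log2 fold change of -0.11 (SE 0.09).

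*Cdh15* encodes M-cadherin, the cadherin of myoblasts and muscle satellite cells. It was measured at 4.67, 8.26 and 6.62 FPKM in controls and at 3.77, 5.28 and 3.66 FPKM in mutants, and each mutant lay below the control of the same number. Mutant replicate 2 lay above control replicate 1, so the groups overlapped. The mutant mean of 4.24 ± 0.90 FPKM was 65.0% of the control mean of 6.51 ± 1.80 FPKM (SD, n = 3). The log2 fold change was -0.51 (SE 0.20, limma, unadjusted p = 0.040, adjusted p = 1), and the exact permutation test gave p = 0.20, where 3 samples against 3 allow 0.10 at the least. With the replicate block the unadjusted p was 0.0045 and the adjusted p 0.80 (limma). The first replicates alone differed by -0.25 and replicates 2 and 3 by -0.63. The call at an unadjusted p under 0.05 was lost without control replicate 2, control replicate 3, mutant replicate 1 or mutant replicate 3. It was also lost in the fit without a filter and with the Y-linked covariate. Over all 6 samples left out in turn the log2 fold change ran from -0.69 to -0.34. *Cdh15* overlaps the annotated gene *Gm20388* on the same strand, and how shared reads were assigned is not described.

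Skeletal muscle markers moved with *Cdh15*. The summed level of 6 such genes (*Myod1*, *Myog*, *Myf5*, *Actc1*, *Ttn* and *Des*) was 104 to 226 FPKM in controls and 100 to 135 FPKM in mutants, and none was at 0. The 4 that were tested all had log2 fold changes below 0, with a median of -0.40, and none passed an unadjusted p under 0.05 in limma. With the replicate block, whose numbers mainly set the first replicates apart, all 4 did, against 6.15% of all genes. The unadjusted p ran from 0.016 (*Des*) to 0.026 (*Myog*), with adjusted p of 0.80 (limma). *Myod1*, the myogenic master regulator, was measured at 9.40, 12.7 and 9.11 FPKM in controls and at 8.93, 8.35 and 6.86 FPKM in mutants. These groups did not overlap (limma, unadjusted p = 0.062). This held for 1 of the 4 muscle markers tested and for 5.79% of all genes. Over the 6 samples, Pearson's r between *Cdh15* and the mean of the muscle markers was 0.97, both on the log2(FPKM + 1) scale. Within a sample both values come from the same library. *Cdh15* and the markers were also both lower in mutants on average, which by itself raises r. The part of muscle content in the *Cdh15* difference was not tested.

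**Figure D2:**
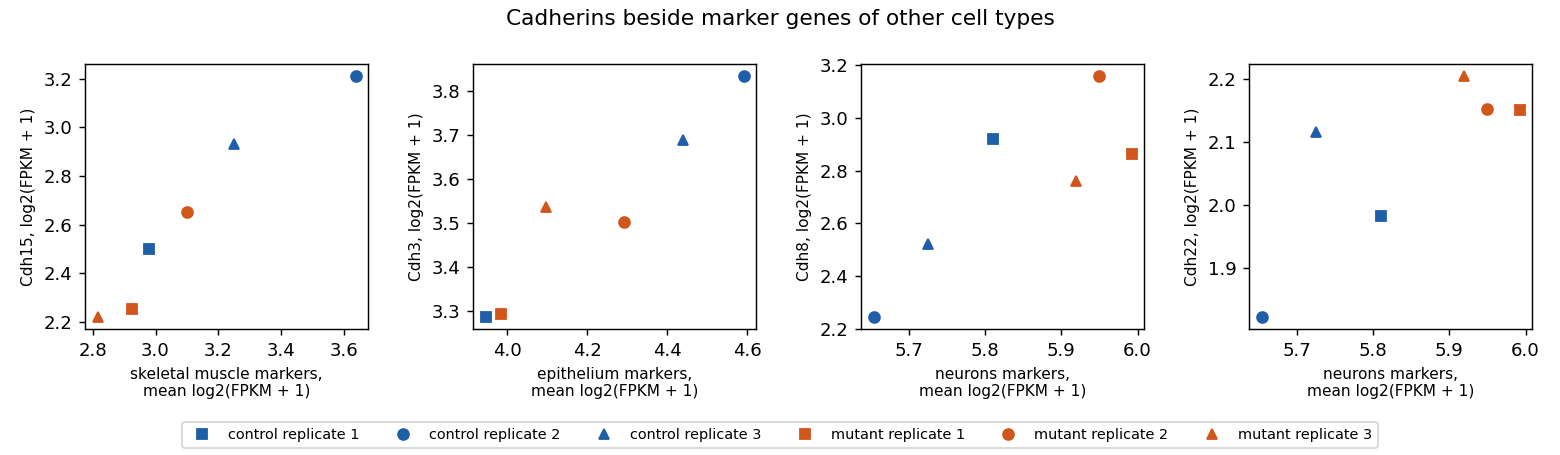
Each panel plots 1 cadherin against the mean of marker genes of 1 cell type, both as log2(FPKM + 1), with 1 point per sample (blue for control, orange for mutant). *Cdh15* rises with the muscle markers (r = 0.97) and *Cdh3* with the epithelial markers (r = 0.95), while *Cdh8* (r = 0.83) and *Cdh22* (r = 0.78) follow the neuronal markers more loosely.

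*Cdh3* in turn followed the epithelial markers, with r = 0.95 over the 6 samples. Both first replicates of *Cdh3* lay below all the other samples. Of all genes tested, 47.7% had both first replicates above or below the others, and a shared split of this kind raises r. How much of this r comes from that split was not tested. The summed level of 7 epithelial genes was 121 to 211 FPKM in controls and 120 to 167 FPKM in mutants, and 6 of the 7 had log2 fold changes below 0. None passed an unadjusted p under 0.05 in limma, and *Krt5* and *Krt14* did with the replicate block (6.15% of all genes). *Cdh1*, E-cadherin and 1 of these 7, was measured at 7.49, 11.6 and 10.3 FPKM in controls and at 7.50, 8.70 and 8.86 FPKM in mutants. As in *Cdh3*, the first replicates were nearly equal and the other mutants lay below the other controls. The part of epithelial content in these values was not tested.

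Cadherin-11 was the most abundant cadherin. *Cdh11*, the type II cadherin of cranial mesenchyme and osteoblast precursors, was measured at 104, 155 and 142 FPKM in controls and at 107, 130 and 124 FPKM in mutants. The first replicates were the lowest of their groups and differed by 0.05 on the log2 scale, whereas in replicates 2 and 3 both mutants lay below both controls. The log2 fold change was -0.13 (SE 0.16, limma, unadjusted p = 0.44) over all samples and -0.22 (SE 0.07, limma, unadjusted p = 0.020, adjusted p = 0.47) in replicates 2 and 3. Leaving out control replicate 2 brought it to -0.012, and leaving out control replicate 1 brought it to -0.30. Over the 6 samples, r between *Cdh11* and the mean of the cranial mesenchyme markers was only 0.42. *Cdh11* and *Cdh2* together made up 72.5% to 75.2% of the FPKM of all 21 cadherins. The ratio of *Cdh11* to *Cdh2* was 1.40, 2.21 and 1.79 in controls and 1.49, 1.59 and 1.49 in mutants, and the ranges overlapped. In the order of mean levels *Cdh11* lay above *Cdh2* and *Cdh2* above *Cdh24* with separate ranges over the 6 samples. From *Cdh24* at 12.9 FPKM down to *Cdh7* at 2.42 FPKM, no neighbours in the order had separate ranges.

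**Figure D3:**
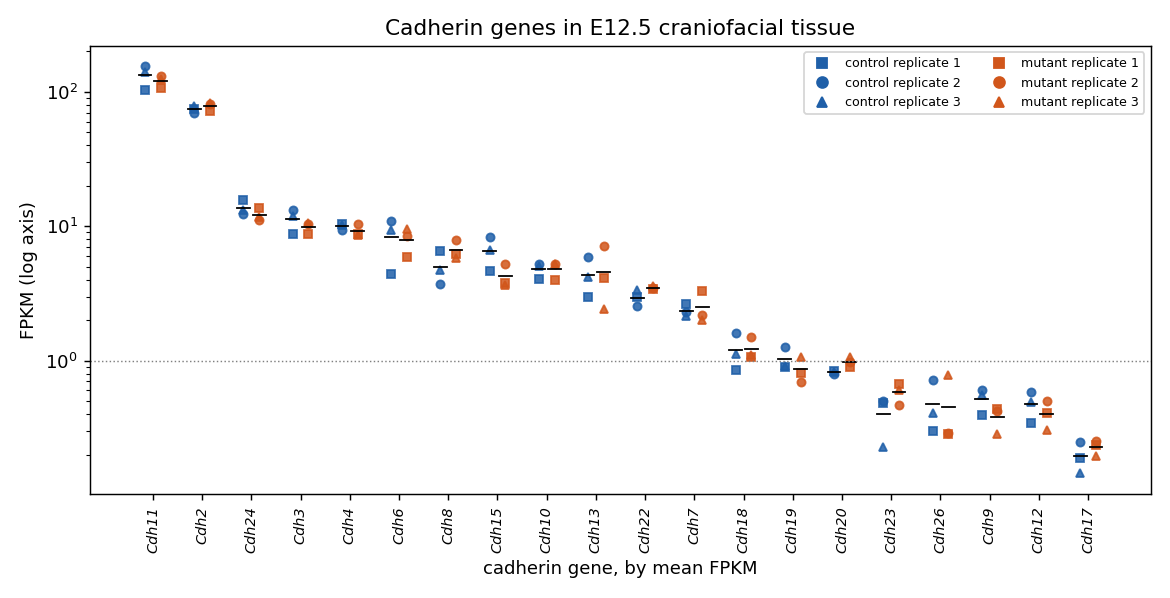
FPKM on a log axis of the 20 cadherin genes above 0, ordered by mean, with 1 point per sample (controls blue, mutants orange, shape by replicate) and a line at each group mean. The dotted line marks the FPKM of 1 that a mean had to reach to be tested. *Cdh11* and *Cdh2* lie far above the others, and control and mutant points overlap in all but *Cdh22* and *Cdh20*.

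*Cdh8*, a type II cadherin of neuronal circuits, had the largest positive log2 fold change of the members tested. It was measured at 6.57, 3.74 and 4.73 FPKM in controls and at 6.27, 7.93 and 5.77 FPKM in mutants. Control replicate 1 reached into the mutant range, and in replicates 2 and 3 both mutants lay above both controls. The log2 fold change was 0.37 (SE 0.19, limma, unadjusted p = 0.093, adjusted p = 1) over all samples and 0.58 (limma, unadjusted p = 0.015, adjusted p = 0.46) in replicates 2 and 3. It was smaller, at 0.21 without control replicate 2 and at 0.20 (SE 0.28) with the Y-linked covariate, and ran up to 0.55 without control replicate 1. *Cdh22*, a type II cadherin of brain, was measured at 2.95, 2.54 and 3.33 FPKM in controls and at 3.44, 3.45 and 3.61 FPKM in mutants. All mutants lay above all controls, as for 2.79% of all genes in this direction. The mutant mean was 119% of the control mean, and the log2 fold change of 0.20 (SE 0.11, limma, unadjusted p = 0.10, adjusted p = 1) did not pass. The exact permutation p was 0.10, the smallest that 3 against 3 allow.

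Neuronal markers were higher in mutants beside both genes. All 8 (*Tubb3*, *Elavl3*, *Elavl4*, *Stmn2*, *Dcx*, *Snap25*, *Map2* and *Nefl*) had log2 fold changes above 0. Of these, 4 had an unadjusted p under 0.05 in limma, against 2.09% of all genes tested, and none passed after adjustment. With the replicate block 7 had an unadjusted p under 0.05 (6.15% of all genes). The groups did not overlap in 5, all higher in mutants, against 5.79% of all genes. The summed level of the 8 was 661 to 760 FPKM in controls and 820 to 907 FPKM in mutants, none being at 0. The 6 samples gave r = 0.83 between *Cdh8* and the mean of these markers and r = 0.78 for *Cdh22*. Both genes and the markers were higher in mutants, which by itself raises r. No r with these markers was computed for other cadherins of neural tissue, such as *Cdh4*, whose log2 fold change was -0.11. The part of neuronal content in the values of *Cdh8* and *Cdh22* was not tested.

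*Cdh24*, a type II cadherin that binds catenins, was measured at 15.8, 12.3 and 13.2 FPKM in controls and at 13.7, 11.1 and 11.6 FPKM in mutants. Each mutant lay below the control of the same number although the groups overlapped, and both first replicates were high. Its log2 fold change was -0.17 (SE 0.12, limma, unadjusted p = 0.21), with an unadjusted p of 0.036 and an adjusted p of 0.80 under the replicate block. The remaining type II cadherins differed little. *Cdh6*, known from premigratory neural crest, had means of 8.28 ± 3.43 FPKM in controls and 7.95 ± 1.86 FPKM in mutants (SD, n = 3). *Cdh10* had a log2 fold change of 0.01 (SE 0.13), *Cdh7* of 0.05 (SE 0.15) and *Cdh18* of 0.03 (SE 0.16). *Cdh13*, T-cadherin, which is held in the membrane by a lipid anchor and has no cytoplasmic tail, varied most within groups, at 2.97, 5.91 and 4.18 FPKM in controls and 4.10, 7.11 and 2.41 FPKM in mutants.

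Below a mean FPKM of 1 stood *Cdh9*, *Cdh12*, *Cdh17*, *Cdh19*, *Cdh20*, *Cdh23* and *Cdh26*, from *Cdh17* at 0.211 to *Cdh19* at 0.941. *Cdh20* was measured at 0.833, 0.791 and 0.829 FPKM in controls and at 0.892, 0.984 and 1.07 FPKM in mutants, so that all mutants lay above all controls. In a fit without the filter its log2 fold change was 0.12 (SE 0.07, limma, unadjusted p = 0.11). *Cdh19*, a cadherin of Schwann cell precursors, ranged from 0.895 to 1.27 FPKM in controls and from 0.694 to 1.07 FPKM in mutants. Its r with the mean of 6 Schwann cell lineage markers was -0.10 over the 6 samples.

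None of the 10 nonclustered protocadherins tested passed an unadjusted p under 0.05, and the groups overlapped in every one of them. *Pcdh18*, a delta-2 protocadherin, was the most abundant, at 36.6, 52.3 and 45.6 FPKM in controls and 40.1, 40.4 and 42.8 FPKM in mutants. The 3 mutants lay close together inside the control range. The log2 fold change was -0.11 (SE 0.13, limma, unadjusted p = 0.43) over all samples and -0.23 (SE 0.08, limma, unadjusted p = 0.036, adjusted p = 0.47) in replicates 2 and 3, but 0.0068 without control replicate 2. *Pcdh18* followed *Cdh11* across the 6 samples (r = 0.92) more closely than it followed the mean of the mesenchymal markers (r = 0.73), and the difference between these r values was not tested. In both *Pcdh18* and *Cdh11* the first replicates lay below all the other samples, a shared split that raises r.

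*Pcdh10*, a delta-2 protocadherin that promotes cell movement and binds actin regulators, was among the most even members, at 14.7, 14.5 and 14.7 FPKM in controls and 16.1, 14.7 and 14.5 FPKM in mutants. Its log2 fold change of 0.04 (SE 0.07, limma) had a 95% confidence interval of -0.14 to 0.21. *Pcdh1*, a delta-1 protocadherin of epithelia, neural tissue and vessels, was measured at 9.82, 11.4 and 10.1 FPKM in controls and at 9.70, 11.1 and 10.1 FPKM in mutants, so that samples of the same number nearly coincided. The log2 fold change was -0.02 (SE 0.09, interval -0.23 to 0.20). *Pcdh19*, a delta-2 protocadherin that forms adhesive complexes with N-cadherin, had means of 7.82 ± 1.02 FPKM in controls and 8.49 ± 2.03 FPKM in mutants (SD, n = 3). *Pcdh19* and the delta-1 protocadherin *Pcdh11x* lie on chromosome X, and with the Y-linked genes as a covariate their log2 fold changes were 0.32 (SE 0.24) and -0.22 (SE 0.18), against 0.09 and -0.11 without it.

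The other delta protocadherins lay between 1 and 10 FPKM in the mean. The delta-1 members *Pcdh7* and *Pcdh9* had log2 fold changes of -0.04 (SE 0.10) and 0.10 (SE 0.14). The delta-2 member *Pcdh17* had 0.09 (SE 0.13). *Pcdh8*, which is regulated in somites and in synapses, had -0.03 (SE 0.30) and varied within both groups, from 2.97 to 6.33 FPKM in controls and from 2.48 to 5.35 FPKM in mutants. *Pcdh12*, a protocadherin of endothelium, was measured at 2.93, 3.90 and 3.52 FPKM in controls and 2.98, 3.87 and 3.58 FPKM in mutants, and followed the mean of 6 endothelial markers (r = 0.94 over the 6 samples). Its first replicates lay below all the other samples, as did those of most of these markers, and such a shared split raises r. The endothelial cadherin *Cdh5* had a log2 fold change of 0.01 (SE 0.15). *Pcdh20* and 2 entries that both carried the name *Pcdh15* had means of 0.865, 0.659 and 0.141 FPKM.

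**Figure D4:**
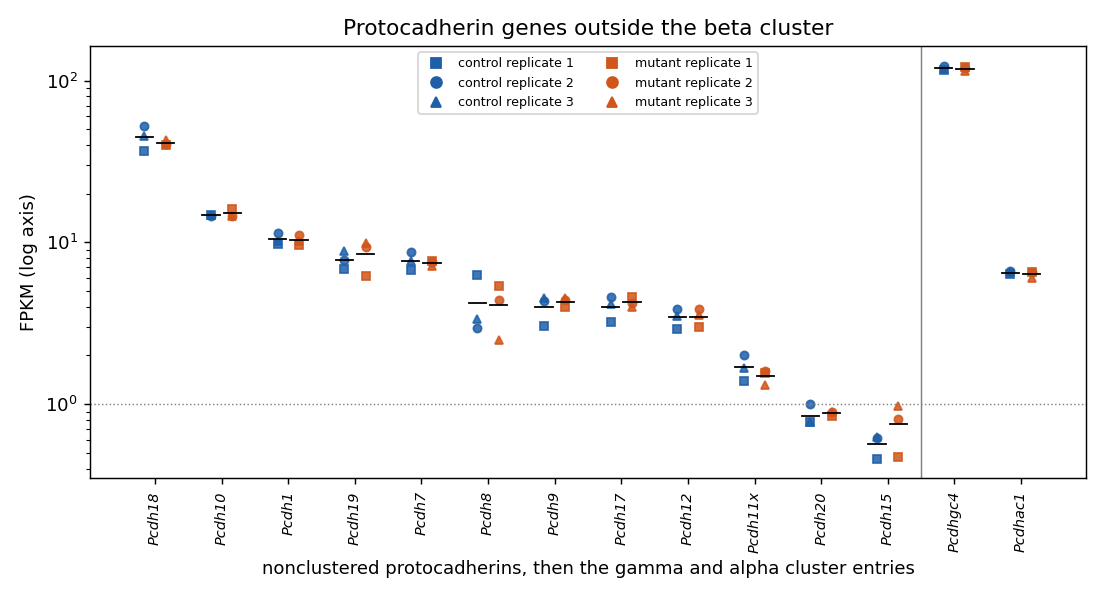
FPKM on a log axis of the nonclustered protocadherins with a mean of at least 0.5, ordered by mean, and, right of the grey line, of the gamma and alpha cluster entries. Points are samples (controls blue, mutants orange, shape by replicate), short lines are group means and the dotted line marks an FPKM of 1. Control and mutant points overlap in every gene, and *Pcdhgc4* lies at 114 to 124 FPKM in all samples.

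The clustered protocadherins were treated apart, because the table used here held 1 entry for the alpha cluster and 1 for the gamma cluster, and the genes of each of these clusters share their constant exons. Such an entry therefore cannot be read as a single isoform. The entry named *Pcdhgc4* was measured at 116.5, 124 and 118 FPKM in controls and 121.5, 119 and 114 FPKM in mutants, which was 79.4% to 82.8% of the clustered FPKM. Its log2 fold change was -0.01 (SE 0.07, limma), with a 95% confidence interval of -0.18 to 0.16. The entry named *Pcdhac1* was measured at 6.34, 6.66 and 6.52 FPKM in controls and 6.59, 6.55 and 6.03 FPKM in mutants, with a log2 fold change of -0.02 (SE 0.08, interval -0.21 to 0.16). Both overlapped between groups and varied little between samples.

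The beta cluster holds 22 single-exon genes, each with its own promoter and without shared constant exons, and all 22 were listed separately. Their levels were low, with a mean FPKM of at least 1 in 8 of them, and *Pcdhb22* led at 2.58, 2.72 and 2.30 FPKM in controls and 2.44, 2.15 and 2.21 FPKM in mutants. *Pcdhb17* had a log2 fold change of -0.12 (SE 0.14) and *Pcdhb7* of 0.04 (SE 0.12). None of the 8 passed an unadjusted p under 0.05 in limma. The other 14 had means from 0.0278 FPKM (*Pcdhb1*) to 0.992 FPKM (*Pcdhb3*).

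Mutant levels were the lower ones across most of the beta cluster. With all 22 genes, the mean log2 level was lower in mutants for 20, all but *Pcdhb7* and *Pcdhb12*, where 51% of all 23063 genes fitted without a filter were lower. The median log2 fold change was -0.11. In the pairs of samples numbered 1, 2 and 3 the mutant was lower in 12, 19 and 16 of the 22, so the first replicates showed it least. The summed level of the cluster was 22.0, 25.4 and 21.8 FPKM in controls and 21.7, 18.9 and 17.7 FPKM in mutants, and the mutant mean was 84.3% of the control mean. The highest mutant lay just under the lowest control. The 22 genes are neighbours of similar sequence, and are spanned by annotated readthrough genes, so reads can be shared and they are not independent, and this direction carries no test.

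**Figure D5:**
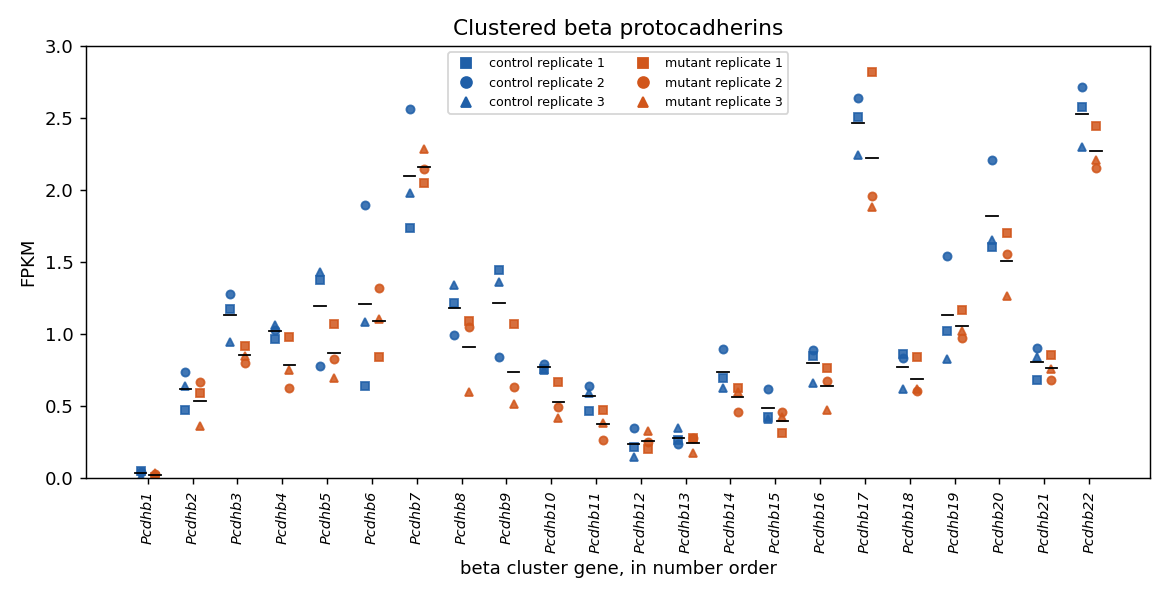
FPKM of the 22 beta cluster genes on a linear axis, in number order, with 1 point per sample (controls blue, mutants orange, shape by replicate) and a line at each group mean. The mutant mean is the lower in 20 of the 22 genes, and the groups are apart in *Pcdhb3* and *Pcdhb10*.

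Single beta genes came closest to a difference at low levels. *Pcdhb10* was measured at 0.759, 0.793 and 0.750 FPKM in controls and 0.669, 0.492 and 0.413 FPKM in mutants, with no overlap. In the fit without a filter its log2 fold change was -0.22 (SE 0.07, limma, unadjusted p = 0.026, adjusted p = 1). *Pcdhb11* had -0.19 (SE 0.08, limma, unadjusted p = 0.044, adjusted p = 1) with overlapping groups. These were the 2 of 57 members above 0 at an unadjusted p under 0.05 in that fit, where 2.87% of all genes were called. *Pcdhb3* did not overlap either, at 1.17, 1.28 and 0.947 FPKM in controls and 0.914, 0.799 and 0.845 FPKM in mutants. With *Cdh20* and *Cdh22* this made 4 of the 57 without overlap, 2 higher and 2 lower in mutants, against 6.34% of all genes in the fit without a filter.

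Calls among the intracellular partners, relatives and regulators of the cadherins lay in the wider cadherin superfamily only. Of 8 catenins tested, which link cadherins to actin and stabilize them at the membrane, none passed an unadjusted p under 0.05, and *Ctnnb1* was measured at 503 to 527 FPKM in controls and 504 to 529 FPKM in mutants. Of 15 other genes of the cadherin superfamily that were tested, 2 passed, both lower in mutants, where 2.09% of all genes tested passed. They were the desmosomal cadherin *Dsc2*, with a log2 fold change of -0.36 (SE 0.13, limma, unadjusted p = 0.024, adjusted p = 1), and *Cdhr4*, with -0.57 (SE 0.19, limma, unadjusted p = 0.020, adjusted p = 1). The groups did not overlap in these 2 nor, higher in mutants, in *Celsr3*, and 5.79% of all genes had no overlap. None of 11 regulators of the protocadherin clusters, among them *Ctcf*, the cohesin genes and *Smchd1*, passed, nor did any of 8 transcription factors of the Snail, Zeb, Twist and Tcf families that regulate cadherin genes. *Ctcf*, which binds the cluster promoters, was measured at 55.3, 61.4 and 65.9 FPKM in controls and 53.6, 63.3 and 66.2 FPKM in mutants.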

How the data were processed

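Craniofacial tissue from 3 control and 3 mutant E12.5 embryos was sequenced as stranded poly(A)+ libraries. The labels call them biological replicates. The authors aligned reads with STAR to GRCm38 and deposited FPKM per gene, and the files hold no read counts. The methods state sequencing depth only as an approximate range for all samples, so the depth of each sample, and the reads behind a value, are unknown here. The submitters' notes also name FastQC 0.11.4 and Cuffdiff. The annotation release is not given in the sources used here.

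Genes with a mean FPKM of at least 1 over all 6 samples were compared as log2(FPKM + 1) with limma 3.58.1 (R 4.3.3) with an intensity trend. The pseudocount of 1 understates changes of low genes. P-values were adjusted by Benjamini-Hochberg over all genes. Exact permutation tests were two-sided. The method was tested on simulated data with independent noise for each gene and sample. These data did not hold the shared deviation of the first replicates, so the method was not tested under it. Coordinates came from GENCODE M21 (57 members matched) and promoters from RefSeq.

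Samples of the same number deviated together, with correlations of 0.55, 0.27 and 0.36 over genes, which was taken as pairing. Control replicate 3 with mutant replicate 2 gave 0.30 and control replicate 2 with mutant replicate 3 gave 0.098, while pairs of a first replicate with another gave -0.51 to -0.28, so the numbers mainly set the first replicates apart. Neither labels nor methods tie litters to them.

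The members, lists and tests were chosen with earlier results of these data known. Every cadherin and nonclustered protocadherin with a mean FPKM of at least 1 is named, in full from 10 FPKM or where called or not overlapping. Of the clustered genes, those leading each cluster and those called or not overlapping are named. Other members below an FPKM of 1 were named after their values were seen.

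The alternatives were a pseudocount of 0.1, other filters, median ratio scaling, quantile normalization, no trend, the replicate block, a term for the first replicates, a Y-linked covariate, replicates 2 and 3 only, and each sample left out in turn. Many members overlap other annotated genes, and their values are uncertain to that extent.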

Additional observations from a re-analysis of the deposited data

How the results depend on the processing

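No member passed an adjusted p of 0.05 under any of the 16 other settings fitted. The count of members at an unadjusted p under 0.05, 1 by the stated method, was 0 with the filter of the methods (FPKM over 5 in all samples of a group, 1.66% of all genes), 2 without a filter (2.87%), 2 with the replicate block (6.15%), 2 with a term for the first replicates (6.12%) and 5 with replicates 2 and 3 only (10.1%). The count of members without overlap, 1 as reported, was 0, 4 and 15 with the filter of the methods, without a filter and with replicates 2 and 3 only. With the filter of the methods, which left 14 members, the cadherin median moved to -0.11. Leaving out each sample in turn gave 0 to 5 members at an unadjusted p under 0.05, with 5 when control replicate 1 was left out (7.18% of all genes), and 1 to 8 without overlap, 8 when mutant replicate 1 (23.4% of all genes) and 7 when control replicate 1 was left out (25.1%). The block on replicate numbers changed no call of a member other than that of *Cdh24*. The block raised the calls at an unadjusted p under 0.05 over all genes from 2.09% to 6.15%. Of the markers, it raised them from 0 to 4 of 4 for skeletal muscle, from 4 to 7 of 8 for neurons and from 0 to 2 of 7 for epithelium. It changed no count in the other lists of markers, partners and relatives. The number of beta cluster genes lower in mutants, whose alternatives were chosen after seeing the data, was 12 with the first replicates only and 17 to 21 when each sample was left out. The call was for *Pcdhb8* in place of *Cdh15* with the Y-linked covariate, and for *Pcdhb5* without control replicate 2. *Cdh15* kept its direction in all of them in which it was fitted.

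Log2 fold changes near 0 reversed for single members. With replicates 2 and 3 only they were *Cdh6* (-0.17), *Cdh7* (-0.052), *Cdh18* (-0.034), *Pcdhb7* (-0.019), *Pcdh10* (-0.0062), *Pcdh8* (0.062), *Pcdh17* (-0.074), with the Y-linked covariate *Cdh7* (-0.15), *Cdh18* (-0.044), *Pcdh10* (-0.016), and with quantile normalization *Cdh13* (0.017). Over the samples left out in turn, the ranges that crossed 0 were *Cdh6* -0.34 to 0.23, *Cdh10* -0.085 to 0.12, *Cdh13* -0.32 to 0.30, *Cdh7* -0.11 to 0.14, *Cdh18* -0.085 to 0.17, *Pcdhgc4* -0.033 to 0.014, *Pcdhac1* -0.042 to 0.013, *Pcdhb7* -0.045 to 0.15, *Pcdhb6* -0.24 to 0.17, *Pcdhb19* -0.14 to 0.096, *Pcdh18* -0.24 to 0.0068, *Pcdh10* -0.0080 to 0.063, *Pcdh1* -0.068 to 0.041, *Pcdh19* -0.026 to 0.28, *Pcdh7* -0.12 to 0.043, *Pcdh8* -0.21 to 0.25, *Pcdh9* -0.037 to 0.18, *Pcdh17* -0.029 to 0.18, *Pcdh12* -0.076 to 0.093. The Y-linked covariate also moved *Cdh13* from -0.0039 to -0.62 (SE 0.37) and *Pcdh8* from -0.027 to -0.53, without a call. The cause was not tested. The files hold no read counts, so no counting error could be given for the low values near 1 FPKM.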
